A study of Mus musculus with 4 samples.

Results

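The 6 lymphatic and sinusoidal endothelial genes, Lyve1, Stab1, Stab2, Ccl21a, Reln and Mmrn1, were taken by name from a matrix of 31053 genes, and each had a row. They were read in the cells that lay in an endothelial cluster and held at least 1 unique molecular identifier (UMI, 1 counted RNA molecule) of Cdh5, the vascular endothelial cadherin. That class held 1490 of 43351 cells. It held 245 cells of the E14.5 library with a Cyp27a1+/- mother and 430 of the E14.5 library with a Cyp27a1-/- mother. At E18.5 it held 400 cells with the Cyp27a1+/- mother and 415 with the Cyp27a1-/- mother. Every fetus, those of the heterozygous mothers included, was labelled Cyp27a1-/-, so that the groups differ in age and in the mother's genotype; Cyp27a1 encodes sterol 27-hydroxylase. A second tag in the title of the E18.5 library with the heterozygous mother reads WT, against its genotype label, which was followed. There was 1 library a group, so no difference below carries a test. Levels are given as CPM, the UMIs of a gene for every 1000000 UMIs of the cells named, and brackets hold exact 95% intervals that cover counting error only.

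The blood endothelium of the lung, the lymphatic endothelium that drains it and the sinusoidal endothelium of the liver share part of their gene use. Lymphatic vessels arise when venous endothelial cells switch on the transcription factor Prox1, and maturing lymphatic vessels make the chemokine Ccl21a, which draws dendritic cells that carry the receptor Ccr7. Sinusoidal endothelium of the liver is open to the plasma and clears hyaluronan and other waste through large scavenger receptors, among them stabilin 1 and stabilin 2.

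By GENCODE M21 on GRCm38, the assembly that mm10 names, all 6 are protein-coding genes. Lyve1 lies at chr7:110850607-110863239 on the minus strand, Stab1 at chr14:31139013-31168641 on the minus strand and Stab2 at chr10:86841198-87008025 on the minus strand. Ccl21a lies at chr4:42772860-42773993 on the minus strand, Reln at chr5:21884454-22344702 on the minus strand and Mmrn1 at chr6:60924976-60989378 on the plus strand. The stretches just upstream of Stab1 and Stab2 are shown because both genes were far higher at E18.5, and that of Ccl21a because its UMIs came from a handful of cells. The sequences are RefSeq's (GRCm38.p6), run 5′ to 3′ on the minus strand and end before the annotated starts. Stab1 is chr14:31168642-31168891, Stab2 chr10:87008026-87008192 and Ccl21a chr4:42773994-42774241. Capitals mark matches on either strand. The letters searched were CAGGAA, which factors of the ETS family bind. A search was also made for AGATAA of the GATA family. The letters ACAAT stood for the SOX family. Those for the MAF family were TGCTGA, and no match overlapped another.
Stab1: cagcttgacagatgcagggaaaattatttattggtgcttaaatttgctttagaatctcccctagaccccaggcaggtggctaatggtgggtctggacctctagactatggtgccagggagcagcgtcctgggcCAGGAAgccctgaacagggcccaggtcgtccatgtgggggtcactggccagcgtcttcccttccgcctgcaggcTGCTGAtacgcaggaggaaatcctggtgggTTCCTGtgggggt
Stab2: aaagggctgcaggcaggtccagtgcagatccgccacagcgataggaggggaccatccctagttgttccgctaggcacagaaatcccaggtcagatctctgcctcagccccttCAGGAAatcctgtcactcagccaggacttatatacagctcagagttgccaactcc
Ccl21a: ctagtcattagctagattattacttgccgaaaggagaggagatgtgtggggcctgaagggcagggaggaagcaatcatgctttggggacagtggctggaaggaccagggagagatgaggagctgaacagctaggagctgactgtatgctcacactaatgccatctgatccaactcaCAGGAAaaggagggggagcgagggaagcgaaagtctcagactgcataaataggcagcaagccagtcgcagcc
Counted from 1 at the 5′ end, Stab1 held CAGGAA at base 134 and, on the other strand, at base 238, with TGCTGA at base 208. Stab2 held CAGGAA at base 113 and Ccl21a at base 177, and neither held another of these motifs. Of all 32851 promoter windows, 25.7% held CAGGAA and 16.1% TGCTGA within 250 bases, while 17.9% held CAGGAA within 167 bases and 25.6% within 248, so that these matches are common ones and are given as a description.

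The libraries held 4957, 4843, 17034 and 16517 cells in the order above, with 47005276 to 118054232 UMIs. Endothelial clusters made up 11.4% and 14.8% of the E14.5 cells and 3.78% and 3.40% of the E18.5 cells. The Cdh5-positive endothelial cells were deeper at E14.5 (median 11455 and 16992 UMIs) than at E18.5 (3355 and 4314). Without the Cdh5 rule, the endothelial clusters had medians of 2397.5, 4363, 2430 and 3697 UMIs in library order, and the ages overlapped. The rule kept 43.4%, 59.8%, 62.1% and 73.8% of these cells, so the kept share also differed between the mothers. Its part in the differences below was not tested. Doublets were called in 12.25% and 14.7% of the Cdh5-positive endothelial cells at E18.5, but in 0% and 1.63% of those at E14.5. All libraries are labelled lung, but Nkx2-1, a transcription factor that marks the lung's epithelium, was found with only 4 and 1 UMIs at E18.5 where the E14.5 libraries held 1935 and 2804. Alb, which encodes the liver's albumin, stood at 2905 and 8344 CPM in the E18.5 libraries, against 0.574 and 0.469 in the E14.5 ones. Age, tissue and library therefore cannot be told apart in any difference between the ages. Cyp27a1 itself had 878 to 4402 UMIs a library, and these counts do not show whether they come from the altered part of the gene. Each of 12 listed endothelial markers had UMIs in the Cdh5-positive class of every library, whereas Prox1, which defines lymphatic endothelium, had only 87, 13, 6 and 13 UMIs there. Of 2 libraries at a time, 93 to 164 cell barcodes were shared, at most 3.12% of a library.

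Lyve1, a hyaluronan receptor of lymphatic and sinusoidal endothelium, was among the 3 genes that stood far higher in the E18.5 endothelium. In Cdh5-positive endothelial cells it had 681 UMIs, 147 CPM [137 to 159], at E14.5 with the heterozygous mother and 1465 UMIs, 168 CPM [159 to 176], with the null mother. At E18.5 it had 2436 UMIs, 1399 CPM [1344 to 1456], with the heterozygous mother and 3067 UMIs, 1323 CPM [1277 to 1371], with the null mother. Both E18.5 libraries were above both E14.5 libraries, and the libraries of the 2 mothers differed by 1.14-fold at E14.5 and less at E18.5. How large a share of all genes parted the ages like this, or like the members below, was not counted, so these differences do not set the members apart. After each cell was thinned to 2000 UMIs, a Lyve1 UMI was found in 24.2% and 22.8% of the E14.5 cells and in 80.4% and 80.1% of the E18.5 cells (49.0%, 60.5%, 81.8% and 87.0% unthinned). Thinning left out 38, 52, 88 and 59 shallower cells. The same share was 0% of 268 and 0.209% of 479 epithelial cells at E14.5, whose median depth was 25428 and 23752 UMIs, and 1.24% and 1.17% of neutrophils and monocytes at E18.5 (median 4818 and 6877.5 UMIs).

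Stab1, a scavenger receptor of sinusoidal endothelium and tissue macrophages, had 321 UMIs, 69.5 CPM [62.1 to 77.5], and 507 UMIs, 58.0 CPM [53.1 to 63.3], in the E14.5 endothelium with the heterozygous and the null mother. At E18.5 it had 1228 UMIs, 705 CPM [666 to 746], and 1465 UMIs, 632 CPM [600 to 665]. As for Lyve1, both E18.5 libraries were above both E14.5 libraries. After thinning, 67.9% and 71.3% of the E18.5 cells held a Stab1 UMI, and 13.04% and 13.5% of the E14.5 cells (83.8%, 86.7%, 48.6% and 55.8% unthinned), against 0.490% and 0.337% of the E18.5 neutrophils and monocytes.

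Stab2, the stabilin that takes up hyaluronan in liver, spleen and lymph node sinuses, was scarce at E14.5, with 62 UMIs, 13.4 CPM [10.3 to 17.2], and 182 UMIs, 20.8 CPM [17.9 to 24.1]. At E18.5 it had 1378 UMIs, 791 CPM [750 to 834], with the heterozygous mother and 1688 UMIs, 728 CPM [694 to 764], with the null mother. Again the ages did not overlap. After thinning a Stab2 UMI was found in 68.6% and 75.0% of the E18.5 cells but in 2.90% and 5.29% of those from E14.5 (81.5%, 89.9%, 17.1% and 27.0% unthinned), against 0.258% and 0.0779% of the E18.5 neutrophils and monocytes.

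**Figure D1:**
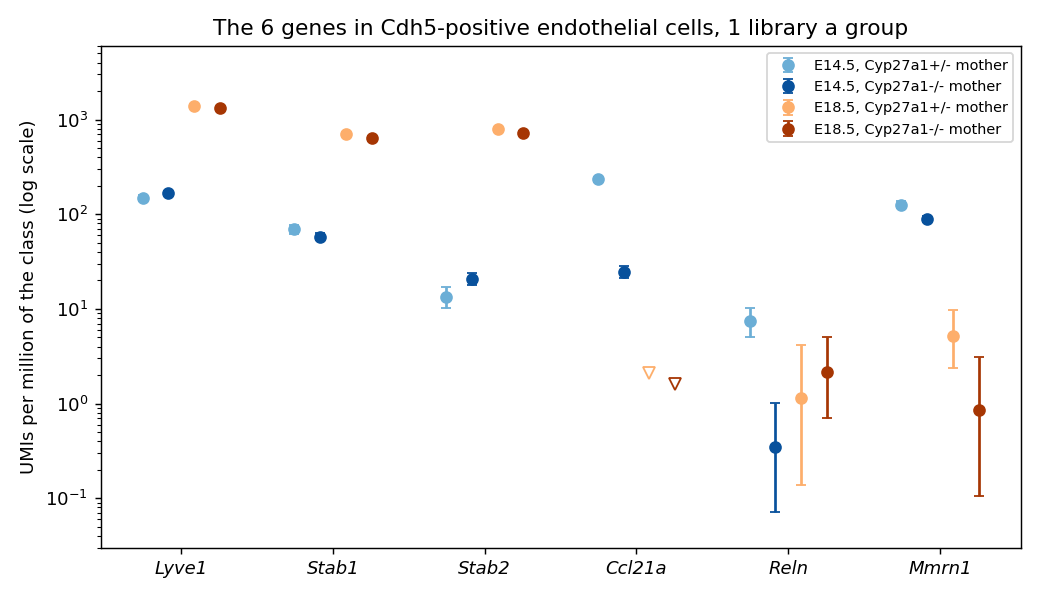
Level of the 6 genes in Cdh5-positive endothelial cells of each library, in CPM of those cells on a log axis; points are single libraries, bars exact 95% intervals for counting error (many are smaller than the point), and open triangles mark the upper bound of a library with 0 UMIs. Lyve1, Stab1 and Stab2 were higher in both E18.5 libraries, and Ccl21a and Mmrn1 in both E14.5 libraries.

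Mmrn1 and Ccl21a went the other way. Mmrn1, which encodes multimerin 1, a large glycoprotein of platelets and of endothelium, had 581 UMIs, 126 CPM [116 to 136], and 775 UMIs, 88.7 CPM [82.5 to 95.1], in the E14.5 endothelium. In the E18.5 endothelium there were 9 UMIs, 5.17 CPM [2.36 to 9.81], and 2 UMIs, 0.863 CPM [0.104 to 3.12]. It was spread widely at E14.5, with a UMI in 135 of 245 and 244 of 430 cells and at most 20 UMIs in a cell. Endothelial cells of the E18.5 heterozygous library that lacked a Cdh5 UMI held 13 more, 7 of them in the single cell that also held Ccl21a.

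Ccl21a had 1086 UMIs, 235 CPM [221 to 250], in the E14.5 endothelium with the heterozygous mother and 215 UMIs, 24.6 CPM [21.4 to 28.1], with the null mother. These UMIs lay in 13 and 2 cells. In the null library 1 cell held 214 of the 215. No Ccl21a UMI was found in the Cdh5-positive endothelium at E18.5, which allows up to 0.75% and 0.723% of cells with a UMI (3 counts of the cells). The gene has near-identical copies: on the GENCODE transcripts Ccl21a differed from Gm21541 at 6 of 870 bases, from Gm13304 at 5 of 837, and from Ccl21b and from Gm10591 at 2 of 402 bases each. How the authors' counting shared reads among them is not given in the sources used here, so the Ccl21a counts may hold or lack UMIs of its copies.

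Reln encodes reelin, a secreted glycoprotein that guides neurons and is also made by lymphatic endothelial cells and hepatic stellate cells. It had 34 UMIs in 9 cells, 7.36 CPM [5.10 to 10.3], in the E14.5 endothelium with the heterozygous mother, and 3 UMIs in 1 cell, 0.343 CPM [0.0708 to 1.00], with the null mother. At E18.5 it had 2 and 5 UMIs, each in a cell of its own.

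Other classes were named from listed markers, and each name stands for cells like that type. Against all cells outside the endothelial clusters, 4 of the 5 genes with at least 50 UMIs in the E14.5 endothelium (Lyve1, Mmrn1, Ccl21a and Stab2) were at least 4-fold higher in the endothelium in both libraries, where 4.27% of all 9087 genes so measured were. Mmrn1 stood 131-fold [95.3 to 186] and 122-fold [85.7 to 180] higher, Stab2 56.1-fold [28.5 to 123] and 91.6-fold [48.7 to 194] higher. Stab1 stood only 3.94-fold [3.44 to 4.50] and 2.12-fold [1.90 to 2.35] higher. At E18.5 all 3 genes measured (Lyve1, Stab1 and Stab2) passed in both libraries, where 13.9% of 5769 genes did. Stab2 stood 459-fold [390 to 542] and 283-fold [250 to 321] higher there. The genes were chosen as endothelial ones, so these counts describe them and do not set them apart.

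At E14.5 macrophages held more of the Stab1 UMIs than the endothelium did, and a large part of the Lyve1 UMIs. The macrophage cluster of 70 and 91 cells had 714 and 745 Lyve1 UMIs, 1228 and 796 CPM, both above the endothelium. Its Stab1 level was 1166 and 1177 CPM, from 678 and 1102 UMIs. Stab1 in neutrophils and monocytes (34.2 and 61.6 CPM) overlapped the endothelial range, and mesenchyme followed at 0.659 and 0.638 CPM. Stab2 was at 0 and 1 UMI in the same macrophages, so that of the 3 receptors it was the one all but missing there. Endothelial clusters held 347 of 1084 and 546 of 1752 Stab1 UMIs (32.0% and 31.2%), 49.5% and 66.0% of the Lyve1 UMIs, and 86.3% and 95.2% of the Stab2 UMIs.

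At E18.5 the order turned round for Lyve1 and Stab1. The endothelium came first, and the macrophage cluster of 384 and 618 cells had 66.2 and 24.2 Lyve1 CPM, 89.6 and 39.5 Stab1 and 49.9 and 48.1 Stab2. Neutrophils and monocytes, at 4.71 and 3.33 Lyve1 CPM, came after the macrophages and overlapped mesenchyme (1.93 and 4.82) and B cells (3.47 and 0.698). This macrophage cluster led with C1qb, C1qa, C1qc and Marco, yet 142 and 292 of its cells held a Cdh5 UMI, 248 and 540 UMIs in all. Lyve1 stood at 8.51 and 4.12 CPM in those cells and at 137 and 52.6 CPM in the rest of the cluster. The cluster's Cdh5 UMIs numbered 388 and 247 per 100 Stab2 UMIs, against 68.6 and 60.2 in the Cdh5-positive endothelium. Lyve1 stood at 133 and 50.2 per 100 Stab2 UMIs there, against 177 and 182 in the endothelium. Stab1 stood at 180 and 82.2 per 100 Stab2 UMIs there, against 89.1 and 86.8 in the endothelium. The 82.2 of the null library joined unlike parts, 52.0 in the cells with a Cdh5 UMI and 145 in the rest. In the heterozygous library these parts stood at 161 and 204. Doublet calls were 8.07% and 11.5% of these macrophages, and the part that doublets or free RNA have in the counts was not tested.

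Among the named classes, Mmrn1 was highest in megakaryocytes, the platelet-forming cells, at both ages. At E14.5 only 12 and 13 such cells were found, and just 2 and 3 of them held Mmrn1. They had 12 and 9 UMIs, 358 [185 to 625] and 295 [135 to 561] CPM, and the endothelium as a class came next. Within it, a small cluster of 39 and 77 cells stood at 393 and 110 CPM. At E18.5 megakaryocytes had 279 and 264 UMIs, 182 and 146 CPM, followed by B cells (24.3 and 17.3 CPM) and blood progenitors (14.9 and 9.18). The B cell UMIs came almost wholly from 1 cluster, with 167 and 121 UMIs. Of all Mmrn1 UMIs, 93.8% and 96.1% of the E14.5 libraries lay in endothelial clusters, but only 3.87% and 0.825% of those at E18.5.

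Reln at E18.5 lay outside the endothelium. A mesenchymal cluster of 125 and 93 cells, led by Dcn and collagen genes, had 192 and 164 Reln UMIs, 371 and 395 CPM. Among the named classes hepatocytes came next, with 104 and 293 UMIs, 23.8 and 17.01 CPM. B cells (10.6 and 4.33) and erythroid cells (4.04 and 5.04) followed, with ranges that overlapped. The hepatocyte clusters were unlike, at 36.5 and 21.3 CPM and at 4.57 and 4.16. An unnamed cluster of 216 and 472 cells stood at 27.7 and 17.6 CPM. Endothelial clusters held 5 of 549 and 5 of 679 Reln UMIs. Ccl21a lay almost wholly in the endothelium, with 97.7% of its UMIs there in each E14.5 library.

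**Figure D2:**
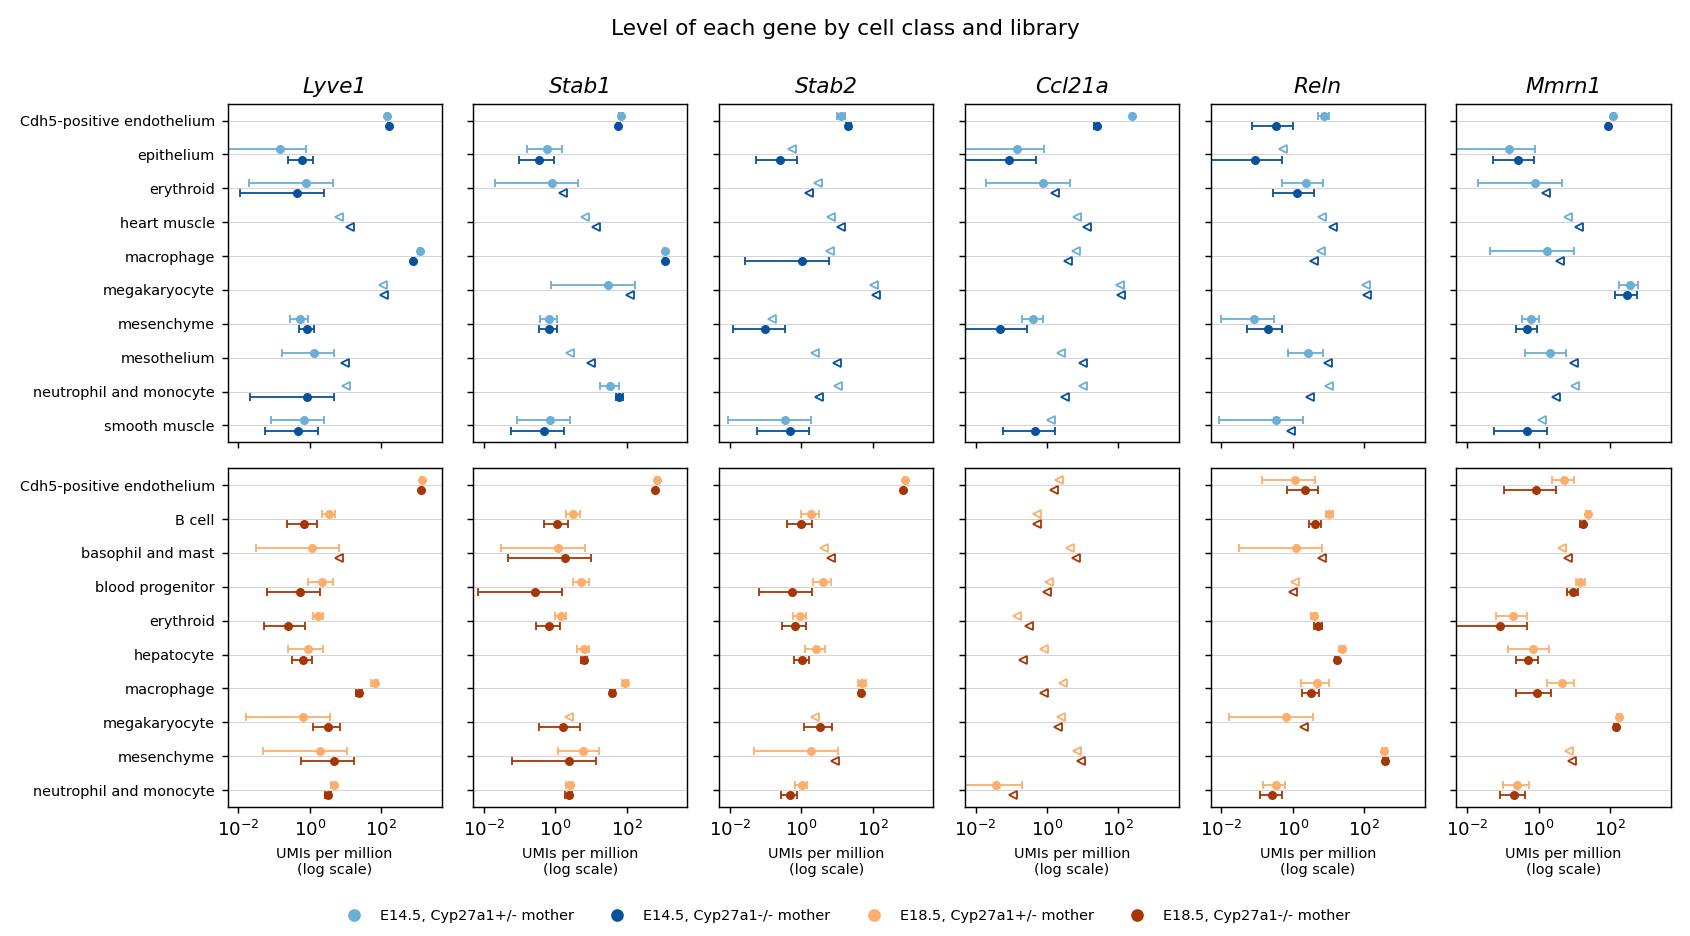
Level of each gene in each named cell class, in CPM of the class on a log axis, with E14.5 in the upper row and E18.5 in the lower; points are single libraries, bars exact 95% intervals for counting error, and open triangles upper bounds where a library had 0 UMIs. At E14.5 Lyve1 and Stab1 were highest in macrophages, at E18.5 in endothelium. Mmrn1 was highest in megakaryocytes at both ages, at E14.5 with UMIs in only 2 and 3 cells.

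The Ccl21a cells were looked at one by one. In the E14.5 library with the heterozygous mother 15 cells held at least 5 Ccl21a UMIs, all in endothelial clusters, 10 with a Cdh5 UMI and 5 without. With the null mother there was 1, 0.139% [0.00352 to 0.772] of 719 endothelial cells, against the 10, 1.77% [0.853 to 3.24] of 564. The E18.5 library with the heterozygous mother had 1, with 21 Ccl21a UMIs and no Cdh5 UMI, and that with the null mother had none. None of the 17 was called a doublet, but only 0.0605% and 0.475% of all cells in the E14.5 libraries were, so this says little. The cell of 35839 UMIs, from the E14.5 heterozygous library, lay in a subcluster led by collagen genes, and 22.7% of that subcluster were called doublets.

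Most of these cells that held a Cdh5 UMI carried the other lymphatic genes as well. Over the 10 cells with a Cdh5 UMI, Prox1 had 81 of the 87 UMIs found in the whole Cdh5-positive endothelium of that library, and Reln had 34 of 34. Of the 81 Prox1 UMIs, 36 lay in 1 cell, that of 35839 UMIs in the collagen-led subcluster. Mmrn1 stood at 609 CPM in them and at 111 in the other 235 cells, Stab1 at 579 and 54.2, and Lyve1 at 423 and 139. Prox1, Reln, Mmrn1 and Stab1 each had a UMI in 9 of the 10 cells, and Lyve1 in 6. Stab2 had no UMI in any of them, but 3 counts over their 134737 UMIs already come to 22.3 CPM, above the 13.8 CPM of the other cells, so a difference in Stab2 was not detectable at this depth. The 5 cells of that library without a Cdh5 UMI were shallower (median 2590 UMIs). They held 1 Lyve1, 2 Prox1, 3 Pdpn and no Mmrn1, Reln or Stab1 UMI. Over their 18423 UMIs 3 counts come to 163 CPM, below the 609 Mmrn1 and 579 Stab1 CPM of the 10 cells. The deepest of the 5, at 9010 UMIs, held 61 Ccl21a UMIs. Why they lacked these genes was not tested. The single cell of the null library, at 13112 UMIs, held 20 Mmrn1, 13 Lyve1, 13 Stab1, 4 Prox1 and 3 Reln UMIs. That of the E18.5 library, at 3391 UMIs, held 12 Lyve1, 7 Mmrn1, 2 Reln and 1 Prox1 UMI. A further 30 cells of the E14.5 heterozygous library, inside and outside the endothelium, held fewer than 5 Ccl21a UMIs, and 28 of them held 1.

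**Figure D3:**
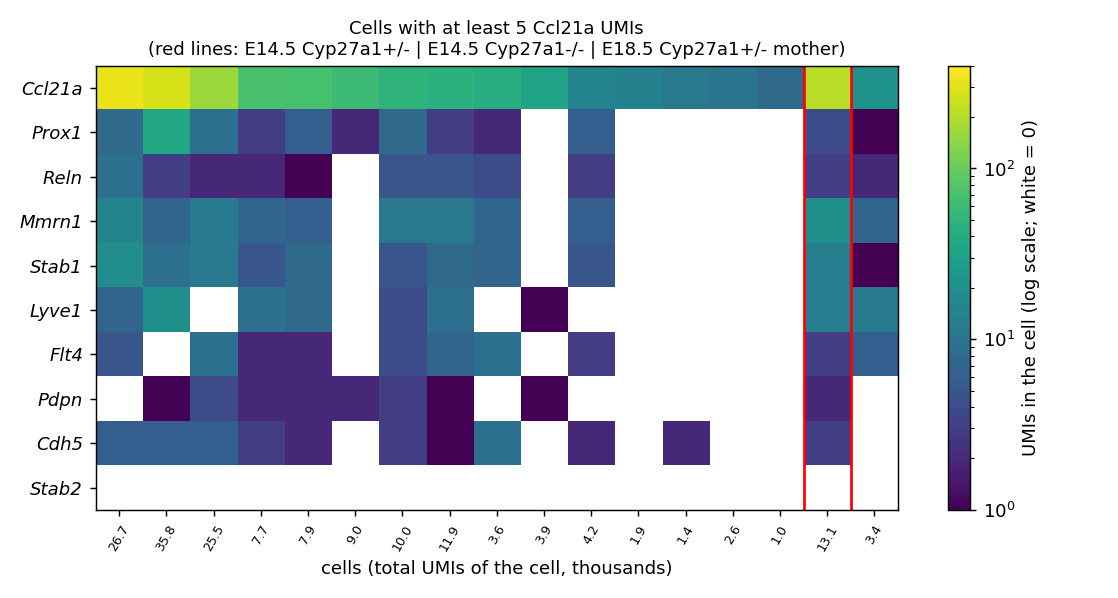
UMIs of 10 genes (rows) in each of the 17 cells with at least 5 Ccl21a UMIs (columns, marked with the cell's total UMIs), on a log colour scale with white for 0; red lines part the 3 libraries. Prox1, Reln, Mmrn1 and Stab1 each appear in 9 of the 10 cells of the E14.5 heterozygous library that held Cdh5, and the Stab2 row is empty.

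Among Cdh5-positive cells, Lyve1 and Mmrn1 were found together in 91 of 245 and 190 of 430 cells at E14.5, where the product of their shares gives 66.1 and 148. Ccl21a and Reln were together in 9 cells of the heterozygous library, which was every Reln cell, where the product gives 0.478. At E18.5 Lyve1 and Stab2 were together in 290 of 400 and 342 of 415 cells, where the product gives 267 and 324. Cells of higher depth hold more UMIs of every gene, and the part of depth in these counts was not tested.

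Endothelial cells were clustered again without the 6 genes. At each age 1 subcluster had the arterial gap junction genes Gja4 and Gja5 among its leading genes and, by the markers listed for arteries, was called arterial-like, with 22 and 47 of the E14.5 and 52 and 32 of the E18.5 cells. Lyve1 was all but missing from these cells at E14.5. It had 0 UMIs with the heterozygous mother, where the other endothelial cells had 145 CPM. That is 7.42-fold what 3 counts over the arterial-like cells would give, and the exact lower bound of the ratio was 6.02. With the null mother Lyve1 had 3 UMIs, 4.84 CPM, against 175, a ratio of 36.2 [12.4 to 176]. Mmrn1 was 3.60-fold [1.54 to 11.1] and 4.64-fold [2.64 to 9.03] higher in the other cells. For Stab1 the intervals spanned 1, with 52.2 and 50.0 CPM in arterial-like cells and 66.6 and 59.5 in the others, at ratios of 1.27 [0.640 to 2.98] and 1.19 [0.827 to 1.77]. Stab2 had no UMI in either arterial-like group. With the null mother the other cells stood 4.70-fold above 3 counts over the arterial-like cells, and the exact lower bound of the ratio was 3.78. With the heterozygous mother the difference was not detectable at this depth. Cdh5 itself was higher in the arterial-like cells (574 and 613 CPM) than in the others (313 and 376).

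At E18.5 the arterial-like cells kept the receptors at a lower level. Lyve1 stood at 506 and 302 CPM in them against 1394 and 1351, 2.75-fold [2.15 to 3.59] and 4.48-fold [3.27 to 6.31] higher in the other cells. Stab1 was 2.21-fold [1.62 to 3.11] and 2.40-fold [1.72 to 3.46] higher in the others, and Stab2 1.29-fold [1.02 to 1.65] and 1.85-fold [1.40 to 2.50]. The E18.5 subcluster called liver-sinusoid-like passed 4 of the 13 listed sinusoid markers, with Clec4g, a lectin of liver sinusoids, among its leading genes. Others that passed 5 and 3 of the 13 had none among their 10 leading genes and stayed unnamed, so the name does not set this subcluster apart. Its 224 and 119 cells had 2184 and 2486 Lyve1, 1138 and 989 Stab1 and 1213 and 1135 Stab2 CPM. Further E18.5 subclusters led with genes of neutrophils, erythroid cells, B cells, hepatocytes or macrophages, and 10.6% to 86.5% of their cells were called doublets; they stayed in the endothelial class. At E14.5 the subcluster led by Ptx3, Nrp2 and Prox1 (42 and 102 cells) held too few of the fixed lymphatic markers to be named. Its Mmrn1 level was 214 CPM with the heterozygous and 101 with the null mother, its Stab1 level 140 and 64.9, and its Lyve1 level 178 and 197. These levels include most of the 10 heterozygous-library cells that held at least 5 Ccl21a UMIs and a Cdh5 UMI. The 1 such cell of the null library lay there too, so this subcluster is not a separate group of lymphatic-like cells.

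**Figure D4:**
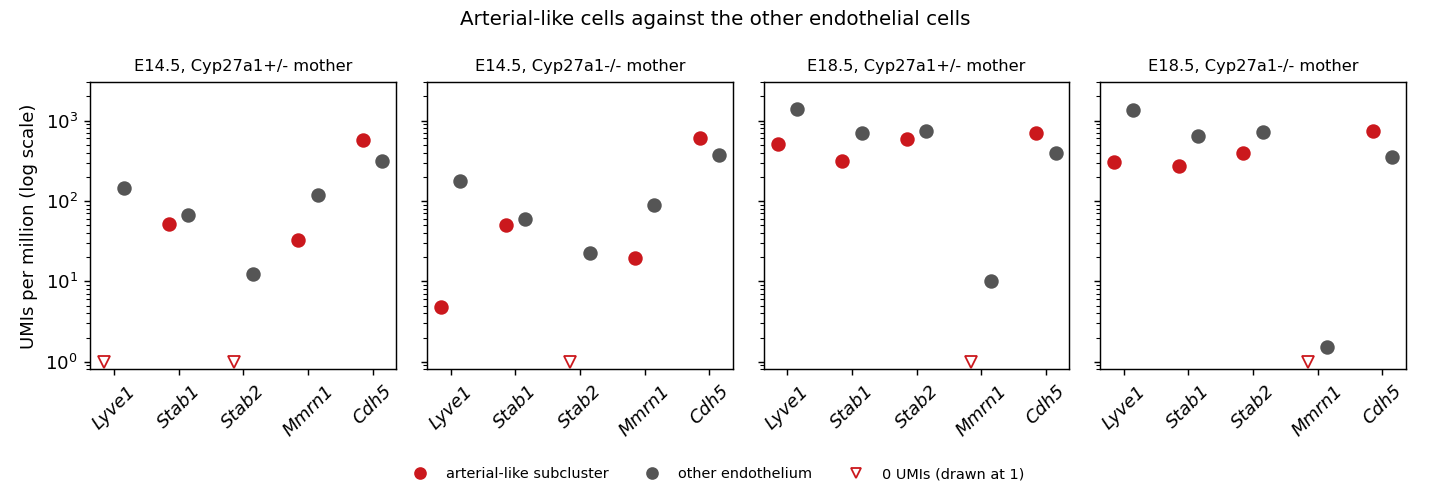
Levels of 4 of the genes and of Cdh5 in the arterial-like subcluster (red) and the other endothelial cells (grey) of each library, in CPM on a log axis; open triangles mark 0 UMIs. Lyve1 was lower in the arterial-like cells of all 4 libraries while Cdh5 was higher there.

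The last question was whether the mother's genotype went with the level of these genes. At E14.5, 5 of the 6 had at least 50 UMIs in the library where they were higher, the minimum used here, and Reln did not. Ccl21a was 9.56-fold [8.25 to 11.1] lower with the null mother, a ratio of 0.105, and it was the only one at least 1.5-fold lower, as were 2.04% of all 8641 genes measured. Stab2 was the only one at least 1.5-fold higher, at a ratio of 1.55 [1.16 to 2.10], as were 3.98% of all genes. Lyve1 had a ratio of 1.14 [1.04 to 1.25], Stab1 of 0.835 [0.724 to 0.963] and Mmrn1 of 0.705 [0.632 to 0.786]. So 2 of 5 had a ratio above 1, against 55.5% of all genes, and their median log2 ratio was -0.23 against 0.02. The Ccl21a difference lay between 13 and 2 cells with a UMI. Without the cells with at least 5 Ccl21a UMIs, a choice made after seeing the counts, Stab1 had a ratio of 1.04 [0.894 to 1.22], Mmrn1 of 0.777 [0.693 to 0.872], Lyve1 of 1.20 [1.09 to 1.32] and Stab2 of 1.51 [1.12 to 2.05], with a median of 0.15 over these 4 genes, which was -0.03 with all cells. In male cells only (59 and 90), Stab1 at 0.566 and Mmrn1 at 0.480 were also past 1.5-fold lower.

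At E18.5 only Lyve1, Stab1 and Stab2 reached 50 UMIs. Their ratios were 0.946 [0.897 to 0.998], 0.896 [0.830 to 0.968] and 0.920 [0.857 to 0.989], so 0 of 3 were above 1, against 41.6% of 5588 genes, and none was 1.5-fold apart, against 4.37% higher and 4.28% lower of all genes. Over all cells with a Cdh5 UMI, in any cluster, Stab1 was past 1.5-fold lower, at 0.639. The median log2 ratio was -0.12 for them and -0.06 for all genes. Cdh5 and Pecam1, which mark the class, had ratios of 0.808 and 0.826, both below the ratios of the 3 receptors. The cells were picked by a Cdh5 UMI, so the Cdh5 level is partly set by that rule and its ratio is no independent yardstick. In male cells only, those with a Y-linked UMI and no Xist UMI (177 and 114 cells), the ratios of Lyve1, Stab1 and Stab2 were 1.22, 1.04 and 1.02, all above 1.

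**Figure D5:**
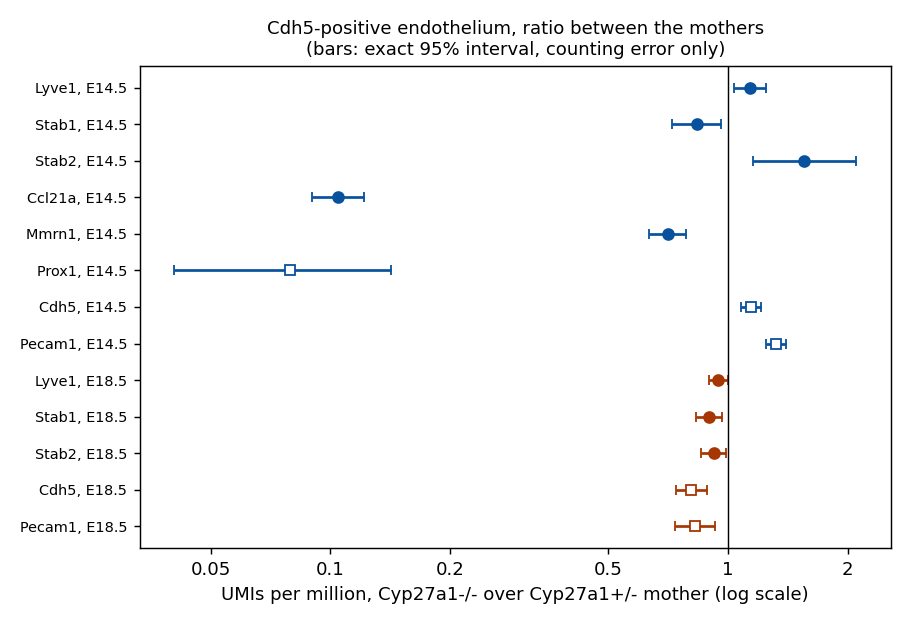
Ratio of the level with the Cyp27a1-/- mother to that with the Cyp27a1+/- mother in Cdh5-positive endothelium, on a log axis, for genes with at least 50 UMIs; filled circles are members, open squares Prox1, Cdh5 and Pecam1, and bars exact 95% intervals for counting error. Ccl21a and Prox1 lie at 0.105 and 0.0790 at E14.5, with the heterozygous library's UMIs of both held mostly by its cells with at least 5 Ccl21a UMIs, and the E18.5 ratios all lie between 0.808 and 0.946.

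RNA of other cell types moved between the same libraries. At E14.5 the 8 mesenchyme markers summed to 204 CPM in the endothelium of the heterozygous library and 65.8 in that of the null library, none at 0, and the 4 measured were all at least 1.5-fold lower. The 7 erythroid markers summed to 203 and 353, with 1 at 0 in the heterozygous library. The 10 macrophage markers, of the other class with Lyve1 and Stab1, summed to 21.2 and 17.2, with 4 at 0 in each library. At E18.5 the 7 hepatocyte markers summed to 523 and 9691 CPM, the 7 erythroid markers to 26002 and 51861 and the 10 macrophage markers to 334 and 566, none at 0. Their part in the ratios was not tested. With size factors in place of the class total, the E18.5 Lyve1 ratio was 1.01.

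Genes that work beside the members were read from lists. Of 20 genes of lymphatic growth and identity, 14 were measured at E14.5, 7 with a ratio above 1 and 7 below. Of all genes 55.5% were above 1 at E14.5, with 3.98% past 1.5-fold higher and 2.04% past it lower, and at E18.5 41.6%, 4.37% and 4.28%, the shares against which the list counts are to be read. Of the list's genes, 3 were at least 1.5-fold lower with the null mother. Prox1 had 0.0790 [0.0404 to 0.142], from 87 and 13 UMIs; without the cells with at least 5 Ccl21a UMIs Prox1 had 6 and 9 UMIs, a ratio of 0.771 [0.245 to 2.63]. The others were Itga9, an integrin chain needed for lymphatic valves, at 0.384, and Gja1, a gap junction gene, at 0.486. At E18.5, 11 were measured, 3 above 1 and 8 below, with Sox18, a transcription factor that acts ahead of Prox1, at 1.59. Of 20 liver sinusoid genes 5 were measured at E14.5, with Maf at 0.410 and Cd36, a fatty acid receptor, at 2.33. At E18.5, 18 were measured, 5 above 1 and 13 below, with a median log2 ratio of -0.15. Rspo3, a secreted enhancer of Wnt signals, had 0.271 [0.205 to 0.355]. It was also a leading gene of an unnamed E18.5 subcluster led by Mgp and Eln, with 30 heterozygous-library and 8 null-library cells. The part of those cells in the ratio was not tested.

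The members' own partners were read in the same way. Of 12 hyaluronan genes 5 were measured at E14.5, 2 above 1 and 3 below, with only Vcan, a hyaluronan-binding proteoglycan, past 1.5-fold at 0.264. All 3 measured at E18.5 were below 1 and none was past 1.5-fold. Vcan was also a leading gene of the collagen-led E14.5 subcluster, of 14 and 8 cells with 22.7% called doublets. The part of those cells in its ratio was not tested. Of 10 reelin pathway genes 5 were measured at E14.5, all between 1 and 1.5, and at E18.5 1 of 4, Itgb1, was past 1.5-fold at 0.645. Of 6 multimerin and EMILIN relatives 3 were measured at either age, and only Emilin1 at E18.5 (0.629) was past 1.5-fold. Of 14 scavenger receptors and stabilin partners, 8 were measured at E14.5 and 7 at E18.5, and those past 1.5-fold were Scarb2 at E14.5, just over it, and Colec12 at E18.5 (1.52). None of the 8 genes of the Ccr7 axis, which include the copies of Ccl21a, was measured at either age. All 12 endothelial markers had ratios above 1 at E14.5 and 1 of 12 did at E18.5. The endothelial clusters were named from these markers and the cells picked by Cdh5, 1 of them, so this is no independent check of the class. Stab1 and Mmrn1 lay below 1 at E14.5, but Stab1 was at 1.04 without the cells with at least 5 Ccl21a UMIs.

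Likeness of pattern was read over 32 values, each the level of a gene in 1 class of at least 50 cells in 1 library, by Pearson's r of log2 values; the values share libraries and depth, and no test was made. Of 13138 genes compared, Stab1 was the one most like Lyve1 (r = 0.98), and Lyve1 the one most like Stab1. Rgs7bp, which anchors regulators of G protein signals to the membrane, came second for both (0.93 and 0.96), followed by Rasgrp3 for Lyve1 (0.92) and the mannose receptor Mrc1 for Stab1 (0.93). Stab2 was most like Ifi44 (0.97), the fatty acid binding protein gene Fabp4 (0.95) and the nuclease gene Dnase1l3 (0.93), while its r was 0.69 with Lyve1 and 0.64 with Stab1. Mmrn1 was most like Pdgfb (0.88), the growth factor by which endothelium recruits pericytes, then Lrrc8b (0.83) and F2rl3 (0.81), a thrombin receptor. Reln was most like Rtl3 (0.96), Steap4 (0.95) and the collagen gene Col5a3 (0.95), and Ccl21a like Dhh (0.96), Crmp1 (0.91) and Hapln1 (0.90), where only the 2 E14.5 endothelial values of Ccl21a were above 10 CPM. Reln likewise stood far higher in the 2 values of the E18.5 mesenchyme (371 and 395 CPM) than in the rest, and Stab2 in the 2 of the E18.5 endothelium.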

How the data were processed

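The authors deposited 1 matrix of UMI counts, whole numbers per gene and cell with no normalization, and a cell table that names each cell's library; counts were used as deposited. Libraries were 10x Chromium, per the labels' protocols. Cell Ranger 3.0.0, Seurat 4.3.0 and the mm10 build are named, with no settings, per the submitters' processing notes; the authors' cell filters are not given in the sources used here, and the lowest total was 500 UMIs. The labels do not say how many fetuses a library holds. The gene and barcode lists were deposited under each other's names and were told apart by their content.

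Cells of each age were clustered together with scanpy 1.11.5 in Python 3.11.15, on 2000 variable genes other than the members, with 30 principal components, 20 neighbours and Leiden clustering (leidenalg 0.10.2) at resolution 1. Endothelial cells were clustered again on 1000 genes and 15 components. A cluster was named, as X-like, from at least 3 listed markers, each found in at least 10% of its cells and at least 4 times the 25th percentile of clusters. This rule was revised after the clusters were seen, and the names are rebuilt ones. Scrublet's doublet calls were not used to remove cells from the reported values; at E14.5 it marked too few to be of use.

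Counts were summed per library and class and divided by the class total (CPM). Levels have exact Poisson intervals, shares of cells exact Clopper-Pearson intervals and ratios exact conditional binomial intervals, each at 95% and for counting error only. A gene counted as measured where the library of higher CPM held 50 or more of its UMIs; log2 ratios used a pseudocount of 10 CPM, and a count of 0 was read against 3 counts. With 1 library a group there was no test, SD or p-value. The ratio step was tested on simulated data with 200 changed genes. Genes outside the 6 were named by a list and the fold of 1.5, by likeness (the 3 highest), or as class markers; Prox1, Pdpn and the other lymphatic markers in the Ccl21a cells were named after their values were seen. The members, lists and rules were chosen with earlier results of these data known. The 13 alternatives listed at the start and those added after seeing the data (2 choices of cells and 1 of genes) are given in the closing section. Promoter sequences came from RefSeq (5 of 6 members matched) and were cut to lie before the GENCODE starts.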

Additional observations from a re-analysis of the deposited data

Results flagged for a closer look

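The ratios of 2 genes between the mothers' genotypes lay on opposite sides of 1 at the 2 ages. In Cdh5-positive endothelium Lyve1 had a ratio, null over heterozygous mother, of 1.14 [1.04 to 1.25] in the younger libraries (E14.5) but of 0.946 [0.897 to 0.998] in the older (E18.5). Stab2 had 0.920 [0.857 to 0.989] at E18.5, against 1.55 [1.16 to 2.10] at E14.5. The E18.5 side turned under other choices: Lyve1 had 1.01 with size factors and 1.22 in male cells, and Stab2 had 1.02 in male cells, so that both ages then lay above 1. With 1 library a group the difference between the ages was not tested, and age, tissue and library cannot be told apart in it.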

How the results depend on the processing

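Of 81 recomputed summary values 15 moved and 2 changed sign. The E14.5 median log2 ratio of the members (-0.23) was 0.15 without the cells with at least 5 Ccl21a UMIs, where Ccl21a was no longer measured, and over the same 4 genes in all cells it was -0.026. It was -0.45 without the deepest cells (over the 95th percentile of a library) and -0.71 in male cells, or -0.18 there without Ccl21a, which had 434 and 0 UMIs in them. Stab1 turned from 0.835 to 1.04 without the Ccl21a cells. The E18.5 median (-0.12) was -0.57 over all cells with a Cdh5 UMI in any cluster, -0.23 as a mean over cells and 0.055 in male cells. The number of members above 1 at E18.5 (0) was 1 with size factors, where Lyve1 had 1.01, and 3 in male cells, where Lyve1 had 1.22, Stab1 1.04 and Stab2 1.02. For these results the cause was not tested.

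The share of cells with a UMI of any member, which after thinning to 2000 UMIs was 42.5%, 44.97%, 93.3% and 95.2% in library order, became 31.3%, 27.7%, 85.7% and 86.1% after thinning to 1000; unthinned it was 75.1%, 80.9% and, for the null library at E18.5, 97.6%. The number of members higher in endothelium than in other cells in the E18.5 heterozygous library was 5 in place of 3 when all endothelial cells entered. Over the alternatives run, the E14.5 ratios ranged from 0.10002 to 0.121 for Ccl21a, 0.480 to 0.777 for Mmrn1, 1.11 to 1.29 for Lyve1 and 1.504 to 2.94 for Stab2, none of which crossed 1, and from 0.566 to 1.04 for Stab1. The E18.5 ratios ranged from 0.670 to 1.22 for Lyve1, 0.639 to 1.04 for Stab1 and 0.689 to 1.02 for Stab2. The Ccl21a range covers 13 alternatives, against 15 for the other genes. In male cells Ccl21a gave no ratio, and without the cells with at least 5 Ccl21a UMIs it was not measured, with 3 and 1 UMIs. Ccl21a at E14.5 rests on few cells, and Reln and the E18.5 lymphatic genes on too few UMIs for a ratio of use. No paired analysis was possible because each group has 1 library.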
